A study of Mus musculus with 12 samples.

Results

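The 6 beta crystallin genes of the mouse lens, *Cryba1*, *Cryba2*, *Cryba4*, *Crybb1*, *Crybb2* and *Crybb3*, were taken by gene symbol from a table of 55487 genes, and all 6 of 6 passed the filter on low counts. In *Trpm3*-M/M lenses 6 of 6 fell against wild-type, as did 31.4% of the tested genes, to between 0.504 and 0.646 of the wild-type level after TMM scaling (a library scaling that centres the bulk of genes on no change), although 4 of the 6 were higher than in wild-type when each library was scaled to its alpha and gamma crystallin counts. On that scale the median tested gene was itself 0.82 above wild-type in log2 terms. In heterozygous *Trpm3*-I/M lenses 5 of 6 fell after TMM scaling, against 15.3% of tested genes, but 0 of 6 passed with library size alone, and all 6 were above wild-type on the alpha and gamma crystallin scale. There the median tested gene was 0.33 above wild-type. In the knockout 0 of 6 passed, against 4.36% of tested genes in either direction. *Cryba4* and *Crybb3* were the most reduced members in *Trpm3*-M/M lenses, and their share of the beta crystallin counts was lower there than in every wild-type library.

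The libraries came from dissected lenses of mice at postnatal day 7 on the C57BL6/J background. The design held 4 genotypes with 3 libraries each: wild-type, *Trpm3*-KO (a germline knockout made by homologous recombination), *Trpm3*-I/M (heterozygous for the I65M missense allele made by CRISPR/Cas9 editing) and *Trpm3*-M/M (homozygous for I65M). The labels name no Cre driver and no treatment, and the knockout and I65M alleles are carried in the germline. Per the design, 4 lenses from males and 4 from females were combined for each library, so a value is an average over animals and the 3 libraries of a genotype measure the spread between pools.

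Crystallins are the structural proteins that fill lens fiber cells, the elongated cells that make up most of the lens, and their dense packing gives the lens its refractive power and transparency. The alpha crystallins are small heat shock proteins with chaperone activity. Beta and gamma crystallins belong to one superfamily, whose members are built from Greek key motifs of beta strands. The beta crystallins assemble into dimers and larger oligomers, and they are divided by charge into acidic (A) and basic (B) chains. Their transcription is switched on as epithelial cells differentiate into fibers, under factors such as c-Maf and Prox1, and mutations in several beta crystallin genes cause inherited cataract.

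Between 56162169 and 82090198 reads were counted per library, of which the 6 beta crystallin genes together took between 10087953 and 14573039. Levels are given as CPM, counts scaled to a common library size with the TMM factors. *Trpm3* itself averaged 268.5 CPM in wild-type, 95.3 in knockout, 386.6 in heterozygous and 475.2 in homozygous mutant lenses. The study proposes that transcripts interrupted by the knockout cassette remain in knockout lenses. By immunofluorescence it found no TRPM3 in the epithelium of older knockout lenses. Whether the knockout counts come from such transcripts was not tested. *Xist*, the RNA that coats the inactive X chromosome in females, was at 0.1 CPM in *Trpm3*-I/M replicate 3 and between 45.8 and 304.9 CPM in the other 11 libraries, which goes against the stated mix of male and female lenses for that library. Counts of calls, shares and ratios in *Trpm3*-I/M lenses are therefore also given without it. The lens label held: fiber markers summed to between 40822 and 43627 CPM in wild-type libraries, against 5.80 to 8.23 CPM for 8 vascular endothelial markers and 0.44 to 0.61 CPM for 8 macrophage markers. Of 6 listed cornea markers 0 passed the filter on low counts. *Krt12*, *Krt14* and *Kera* from that list were at 0 in all 3 wild-type libraries, and levels of the other listed cornea markers are not reported here.

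The members lie on 3 chromosomes (GRCm38). *Cryba1* (ENSMUSG00000000724) spans chr11:77718615-77725283 and *Cryba2* (ENSMUSG00000006546) spans chr1:74889934-74893143, both on the minus strand. The other 4 form 2 pairs on chromosome 5. *Cryba4* (ENSMUSG00000066975, chr5:112246493-112252518, minus strand) and *Crybb1* (ENSMUSG00000029343, chr5:112255815-112269585, plus strand) point away from each other with 3296 bases between them. *Crybb2* (ENSMUSG00000042240, chr5:113058258-113070117) and *Crybb3* (ENSMUSG00000029352, chr5:113075839-113081584) lie on the minus strand with 5721 bases between them. All are annotated as protein coding. *Nufip2* overlaps *Cryba1* and the processed pseudogene *Gm43247* overlaps *Crybb2*, each on the opposite strand and with no shared exon bases. *Nufip2* had at most 2782 counts in a library and *Gm43247* at most 443, while each member had at least 800989. The coding sequences of the 6 genes were between 63.8% and 71.5% identical in pairwise alignment, and no pair shared an identical run longer than 20 bases.

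Because the members moved together, the 100 bases before each RefSeq transcription start (GRCm38.p6) are shown for 5 of them, 5′ to 3′ on the strand of the gene. Capitals mark TGCTGA, a stretch of the Maf recognition element, on either strand (TCAGCA is its reverse complement), and TATAAA, the letters of the TATA box.
Cryba1 (chr11:77725294-77725393): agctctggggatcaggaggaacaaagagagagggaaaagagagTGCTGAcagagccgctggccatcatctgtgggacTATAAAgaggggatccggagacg
Cryba4 (chr5:112252519-112252618): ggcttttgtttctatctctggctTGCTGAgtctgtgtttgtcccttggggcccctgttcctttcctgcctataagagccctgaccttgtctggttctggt
Crybb1 (chr5:112255720-112255819): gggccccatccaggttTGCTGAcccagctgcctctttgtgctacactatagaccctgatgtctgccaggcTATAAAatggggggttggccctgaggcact
Crybb3 (chr5:113081585-113081684): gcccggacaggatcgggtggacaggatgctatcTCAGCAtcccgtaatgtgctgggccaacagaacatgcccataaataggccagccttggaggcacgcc
Crybb2 (chr5:113070118-113070217): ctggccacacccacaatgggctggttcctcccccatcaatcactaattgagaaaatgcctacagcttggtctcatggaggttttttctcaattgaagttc
In the window from 250 bases before to 50 bases after the start, TGCTGA was found on either strand in 5 of 6 members and in 19.5% of 32851 promoters. *Crybb2* is shown because it was the exception. *Cryba4* held 3 copies, at 182, 135 and 77 bases before the start. TATAAA was found in 3 of 6 members, *Cryba1*, *Cryba2* and *Crybb1*, against 13.6% of promoters. It began 23 bases before the start in *Cryba1* and 30 in *Crybb1*. In *Cryba2* it began 3 bases before the start and ran across it, so that match is not placed as a TATA box. ATTGTT, a core bound by Sox factors, was found in 1 of 6, *Crybb1*, against 10.7%, and GAANNTTC, the core of the heat shock element, in 0 of 6 against 7.86%. These matches describe letters only, and no binding was measured.

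*Cryba1* encodes 2 proteins, beta A3 and beta A1, from 1 mRNA by starting translation at different ATG codons. The first 60 coding bases, shown because gene counts cannot tell the proteins apart, carry in-frame ATG codons (capitals) at codons 1 and 18.
Cryba1 coding start: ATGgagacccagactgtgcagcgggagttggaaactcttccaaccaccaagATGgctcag

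In wild-type lenses the members were among the most abundant transcripts. *Cryba1* ranked 4th of all genes by mean CPM, *Crybb3* 5th, *Crybb1* 7th, *Crybb2* 11th, *Cryba4* 12th and *Cryba2* 14th, with no correction for length. Per kilobase of the union of annotated exons, *Crybb1* ranked 6th, *Cryba1* 8th, *Cryba4* 10th, *Crybb3* 11th, *Cryba2* 13th and *Crybb2* 15th. Levels can be compared between genes only per length, and the order depended on which length was used. Per kilobase of the union of annotated exons, *Crybb1* led with 43516 ± 1828 CPM per kb (SD, n = 3), followed by *Cryba1* with 34982 ± 2382. *Cryba4* (23277 ± 1120) and *Crybb3* (22269 ± 1603) came next and did not differ beyond their spread, and *Cryba2* (15433 ± 956) and *Crybb2* (11542 ± 1519) were lowest. Several annotated transcripts of these genes retain introns, which makes the union long. Per kilobase of the longest protein-coding transcript, a length chosen after the data were seen, *Cryba1* led with 71674 ± 4881 CPM per kb, followed by *Crybb3* with 58245 ± 4194 and *Crybb1* with 48598 ± 2041. By that measure *Crybb2* (25632 ± 3373), *Cryba2* (25571 ± 1583) and *Cryba4* (24141 ± 1161) overlapped and could not be ranked. *Cryba1* and *Crybb1* were thus in the upper part of the order under both lengths, while the places of *Crybb3* and *Cryba4* changed. Per kilobase of the longest annotated transcript, *Crybb1* led with 48598 ± 2041 CPM per kb. *Cryba1* (40495 ± 2758) and *Crybb3* (36614 ± 2636) followed and overlapped.

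**Figure D1:**
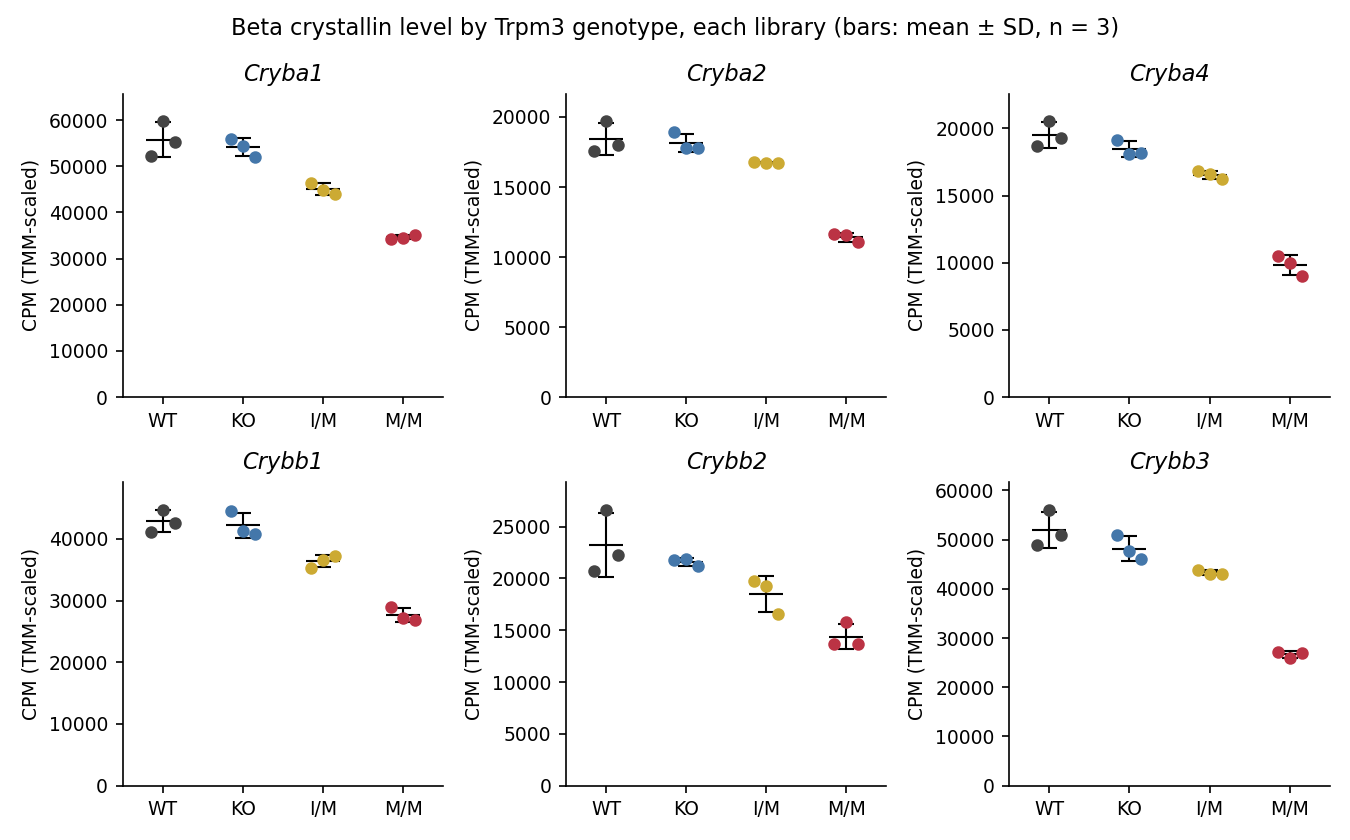
Level of each beta crystallin gene in every library, in TMM-scaled CPM, for wild-type (WT), knockout (KO), heterozygous (I/M) and homozygous (M/M) lenses; points are libraries and bars are the mean ± SD (n = 3). For each of the 6 genes the 3 M/M libraries lie below all other libraries on this scale, while KO libraries overlap wild-type.

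Comparison of homozygous mutant with wild-type lenses asks how the homozygous cataract-causing allele relates to beta crystallin transcripts at the start of cataract formation. All 6 members fell in *Trpm3*-M/M lenses at an FDR of at most 0.05 (edgeR quasi-likelihood test with Benjamini-Hochberg adjustment), against 31.4% of the 8984 tested genes that fell. The median log2 fold change of the members was -0.69, and that of all tested genes 0.00. None of the 6 reached a fold change of 2, a size of fall that 2.53% of tested genes reached. That count was 1 without *Trpm3*-M/M replicate 1 and 2 without wild-type replicate 1. Wild-type and *Trpm3*-M/M libraries did not overlap for 6 of 6 members, as for 32.4% of tested genes that were lower. The direction held for 6 of 6 with library size alone, but *Cryba1*, *Cryba2*, *Crybb1* and *Crybb2* were above wild-type when libraries were scaled to alpha and gamma crystallin counts. On that scale the median log2 fold change was 0.14 for the members and 0.82 for all tested genes.

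Among the acidic chains, *Cryba4*, a partner subunit in beta crystallin oligomers, changed most. Its level was 18707, 20539 and 19271 CPM in the wild-type libraries and 10516, 9953 and 9039 CPM in the *Trpm3*-M/M libraries. The highest mutant library was well below the lowest wild-type library, and the fitted level was 0.504 of wild-type (log2 fold change -0.99, SE 0.07, edgeR FDR 2.94e-08). *Cryba1*, the acidic chain with the most counts, was at 52235, 59782 and 55269 CPM in wild-type and at 34226, 34573 and 35149 CPM in *Trpm3*-M/M lenses. Its *Trpm3*-M/M libraries lay close together, and the ratio was 0.621 (log2 fold change -0.69, SE 0.07, edgeR FDR 1.12e-06). *Cryba2*, the shortest by genomic span of the acidic genes, was at 17557, 19706 and 17971 CPM in wild-type and at 11634, 11582 and 11041 CPM in *Trpm3*-M/M lenses. The groups were again separate, with a ratio of 0.620 (log2 fold change -0.69, SE 0.06, edgeR FDR 3.24e-07).

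Among the basic chains, *Crybb3* changed most. It was at 48862, 56112 and 50890 CPM in wild-type and at 27104, 25959 and 26968 CPM in *Trpm3*-M/M lenses, a ratio of 0.513 with no overlap (log2 fold change -0.96, SE 0.07, edgeR FDR 5.84e-08). *Crybb1*, a basic chain with long terminal extensions, was at 41175, 44758 and 42659 CPM in wild-type and at 28969, 27251 and 26872 CPM in *Trpm3*-M/M lenses. Its fall was the smallest of the 6, to 0.646 of wild-type (log2 fold change -0.63, SE 0.06, edgeR FDR 1.84e-06). *Crybb2*, the major basic chain of the mature lens, was at 20742, 26636 and 22289 CPM in wild-type and at 13676, 15791 and 13688 CPM in *Trpm3*-M/M lenses. It had the largest coefficient of variation of the 6 in wild-type (13.2%), heterozygous and homozygous lenses and the smallest in the knockout (1.86%), and its replicate 2 was the highest library in both groups. The ratio was 0.619 (log2 fold change -0.69, SE 0.10, edgeR FDR 3.67e-05).

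**Figure D2:**
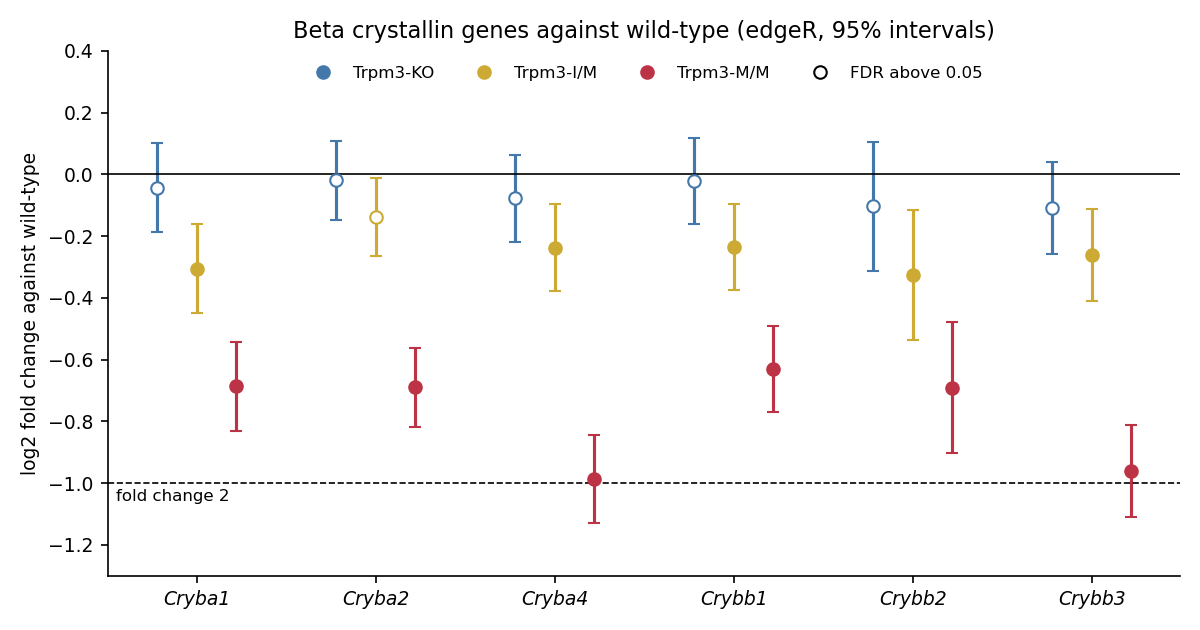
Log2 fold change of each beta crystallin gene against wild-type in knockout, heterozygous and homozygous mutant lenses, with 95% intervals from edgeR after TMM scaling; open points have an FDR above 0.05 and the dashed line marks a fold change of 2. The values run from -0.11 to -0.02 in KO, from -0.33 to -0.14 in I/M and from -0.99 to -0.63 in M/M lenses, and the directions depend on the scaling: with library size alone, 3 KO values and *Cryba2* in I/M were above 0, and scaled to alpha and gamma crystallin counts 4 KO, 6 I/M and 4 M/M values were. On the alpha and gamma scale the median tested gene was 0.33 higher in I/M and 0.82 higher in M/M lenses.

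Heterozygous lenses were compared with wild-type to ask what the mutation does beside a normal allele. In *Trpm3*-I/M lenses 5 of 6 members fell, against 15.3% of tested genes, by between 15.1% and 20.3%. *Crybb2*, at 19754, 19235 and 16539 CPM, had the largest difference (log2 fold change -0.33, SE 0.10, edgeR FDR 0.0205), and *Cryba1*, at 46464, 44902 and 43894 CPM, had the lowest FDR (log2 fold change -0.31, SE 0.07, edgeR FDR 0.00337). *Crybb2* replicate 3 was the lowest of these *Trpm3*-I/M libraries. The other 3 that fell were *Cryba4*, *Crybb1* and *Crybb3*, with log2 fold changes of -0.24, -0.24 and -0.26. *Cryba2*, at 16753, 16680 and 16739 CPM, did not pass (log2 fold change -0.14, SE 0.06, edgeR FDR 0.0911), although all of its *Trpm3*-I/M libraries lay below the lowest wild-type library. Non-overlap held for 6 of 6 members, as for 21.5% of tested genes that were lower.

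The calls in heterozygous lenses were less secure than those in homozygous lenses. Without *Trpm3*-I/M replicate 3, the library with hardly any *Xist*, 3 of 6 members passed, and *Cryba4* and *Crybb2* did not (edgeR FDR 0.0554 and 0.0965). A fit of the wild-type and *Trpm3*-I/M libraries alone left 2 of 6, *Cryba1* and *Cryba4*. With library size as the only scaling 0 of 6 passed and *Cryba2* was above wild-type (log2 fold change 0.06), and scaled to alpha and gamma crystallin counts all 6 were above wild-type by 0.01 to 0.20. The median tested gene was 0.20 above wild-type with library size alone and 0.33 above it on the alpha and gamma scale.

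Homozygous lenses were also compared directly with heterozygous lenses. All 6 members were lower in the homozygotes at an FDR of at most 0.05, against 25.7% of tested genes, and the libraries did not overlap for any of the 6 (30.2% of tested genes were lower without overlap). *Cryba4* (log2 fold change -0.75) and *Crybb3* (-0.70) differed most, followed by *Cryba2* (-0.55), and *Crybb1* (-0.39), *Cryba1* (-0.38) and *Crybb2* (-0.36) differed least. The count stayed at 6 of 6 without *Trpm3*-I/M replicate 3. With library size alone 3 of 6 passed, *Cryba2*, *Cryba4* and *Crybb3*, and scaled to alpha and gamma crystallin counts *Cryba1*, *Crybb1* and *Crybb2* were above their *Trpm3*-I/M levels by 0.12, 0.10 and 0.13, with none past the test. The median tested gene was 0.50 higher on that scale.

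Loss of the channel was compared with wild-type to set deficiency beside mutation. In *Trpm3*-KO lenses 0 of 6 members passed the edgeR test, 0 of 6 had an unadjusted p under 0.05 and 0 of 6 passed with DESeq2, against 4.36% of tested genes that passed in either direction. *Crybb3*, at 50898, 47625 and 45977 CPM, had the largest difference from wild-type (log2 fold change -0.11, 95% interval -0.26 to 0.04). *Cryba1* was at 55958, 54348 and 52064 CPM, and its log2 fold change of -0.04 had a 95% interval from -0.19 to 0.10. Wild-type and *Trpm3*-KO libraries overlapped for 6 of 6 members, whereas 23.2% of tested genes did not overlap. The lowest bound among the 6 intervals was -0.31, for *Crybb2*, so a fall as large as the smallest one in *Trpm3*-M/M lenses lay outside the interval of every member after TMM scaling. With library size alone the smallest fall in *Trpm3*-M/M lenses was 0.12, which lay inside the knockout intervals of *Cryba4*, *Crybb2* and *Crybb3*. Signs in *Trpm3*-KO lenses were not stable, since *Cryba1*, *Cryba2*, *Crybb1* and *Crybb2* were above 0 without wild-type replicate 2.

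Summed over the family, beta crystallins took 18.5% ± 0.43 of counted reads in wild-type (SD, n = 3), 18.4% ± 0.20 in knockout, 17.8% ± 0.26 in heterozygous and 15.6% ± 0.13 in homozygous mutant lenses. Without *Trpm3*-I/M replicate 3 the heterozygous mean was 17.9%. The 3 *Trpm3*-M/M libraries, between 15.4% and 15.6%, were the lowest of the 12. The other crystallin classes moved by different amounts. The 2 alpha genes took 16.9% ± 0.16 of reads in wild-type and 17.5% ± 0.38 in *Trpm3*-M/M lenses, while the 8 gamma genes took 26.7% ± 1.25 and 17.5% ± 1.27. The beta share of all reads counted on 19 crystallin genes was therefore 29.8% ± 0.72 in wild-type and 30.8% ± 0.82 in *Trpm3*-M/M lenses, and these libraries overlapped. The ratio of beta to gamma counts was 0.696 ± 0.032 in wild-type and 0.892 ± 0.071 in *Trpm3*-M/M lenses, and the ratio of beta to alpha counts was 1.09 ± 0.029 and 0.892 ± 0.014. Beta crystallin counts thus lay between those of alpha and gamma genes in their change. No test was made on these sums.

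**Figure D3:**
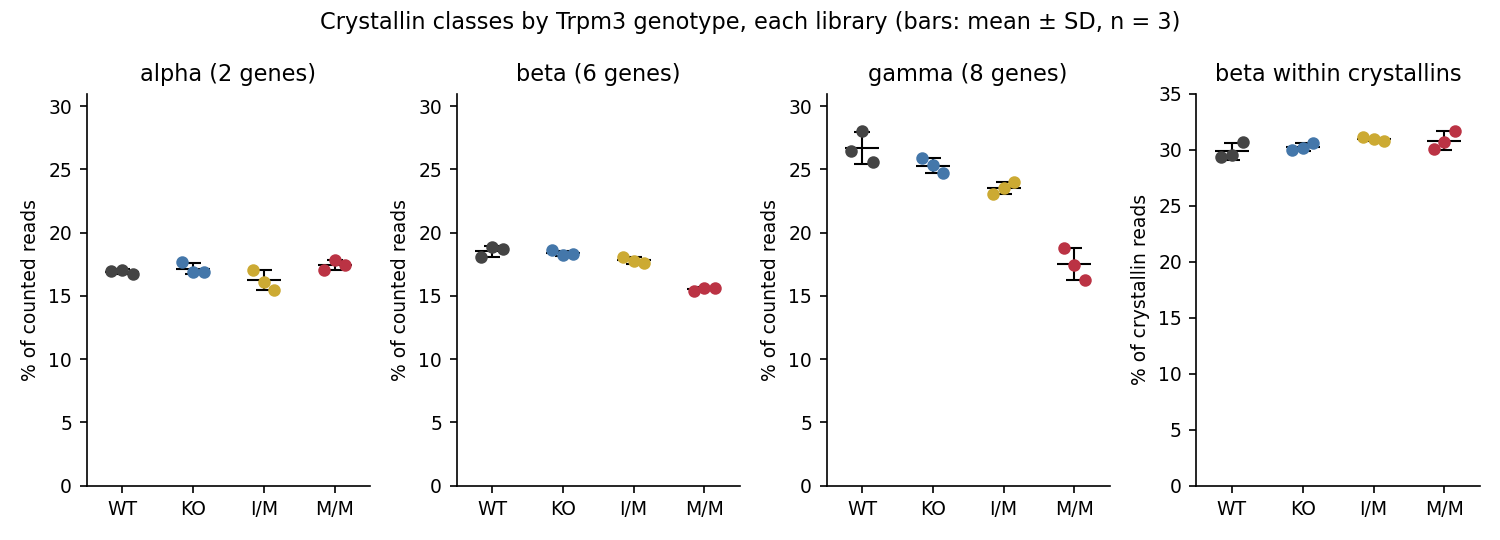
Share of counted reads taken by alpha, beta and gamma crystallin genes, and share of beta within the reads of 19 crystallin genes, in percent, by library; points are libraries and bars are the mean ± SD (n = 3). The beta share is 18.5% in wild-type and 15.6% in *Trpm3*-M/M lenses, the gamma share 26.7% and 17.5%, and the beta share within crystallins 29.8% and 30.8%.

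The single genes of the other classes gave the same picture in mutant lenses, but not in the knockout. In *Trpm3*-KO lenses 1 of 8 gamma genes was lower and 1 higher, against 4.36% of tested genes in either direction. These were *Cryge* (log2 fold change -0.57, edgeR FDR 0.00188) and *Crygf* (0.55, edgeR FDR 0.00951). All 8 gamma genes fell in *Trpm3*-M/M lenses, against 31.4% of tested genes, with a median log2 fold change of -1.08, from *Crygb* (-1.37) to *Crygs* (-0.81), the member of that class most expressed in the mature lens. In *Trpm3*-I/M lenses 7 of 8 fell, all but *Crygn*, against 15.3% of tested genes, whereas 4 were lower with library size alone and 0 when scaled to alpha and gamma counts. Without *Trpm3*-I/M replicate 3, 6 of 8 fell and *Crygs* also did not pass. Relative to alpha and gamma counts 7 of the 8 in *Trpm3*-M/M lenses stayed below wild-type and *Crygs* did not. The gamma genes are themselves part of that scale. Values on it therefore compare them with a total they belong to, and cannot show whether the class as a whole changed. *Cryaa* fell by 0.51 on the log2 scale (SE 0.08, edgeR FDR 6.17e-05) but was at 0.00 with library size alone. *Cryab*, the more widely expressed alpha gene, was at -0.18 (SE 0.08, edgeR FDR 0.0787) and above 0 with library size alone. *Cryba4* and *Crybb3*, at -0.99 and -0.96, were near *Crygd* (-0.98) and *Crygn* (-0.92), while the other 4 members lay between *Crygs* and *Cryaa*.

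Shares within the family do not depend on library scaling, so they show whether the members fell equally. In *Trpm3*-M/M lenses *Cryba4* took 7.89% ± 0.49 of beta crystallin counts against 9.22% ± 0.18 in wild-type, and *Crybb3* took 21.4% ± 0.61 against 24.5% ± 0.12. *Crybb1* took 22.2% ± 0.66 against 20.3% ± 0.53, and *Cryba1* 27.8% ± 0.76 against 26.3% ± 0.17. These 4 shares did not overlap between the genotypes, and neither did that of *Cryba2*, at 9.16% ± 0.14 against 8.70% ± 0.10. *Crybb2*, at 11.5% ± 0.95 against 10.9% ± 0.68, overlapped. Two-sided exact permutation tests gave p = 0.1 for each share without overlap, the smallest value that 3 against 3 libraries allow, and p = 0.2 after Benjamini-Hochberg adjustment over 24 tests, so none could pass 0.05.

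**Figure D4:**
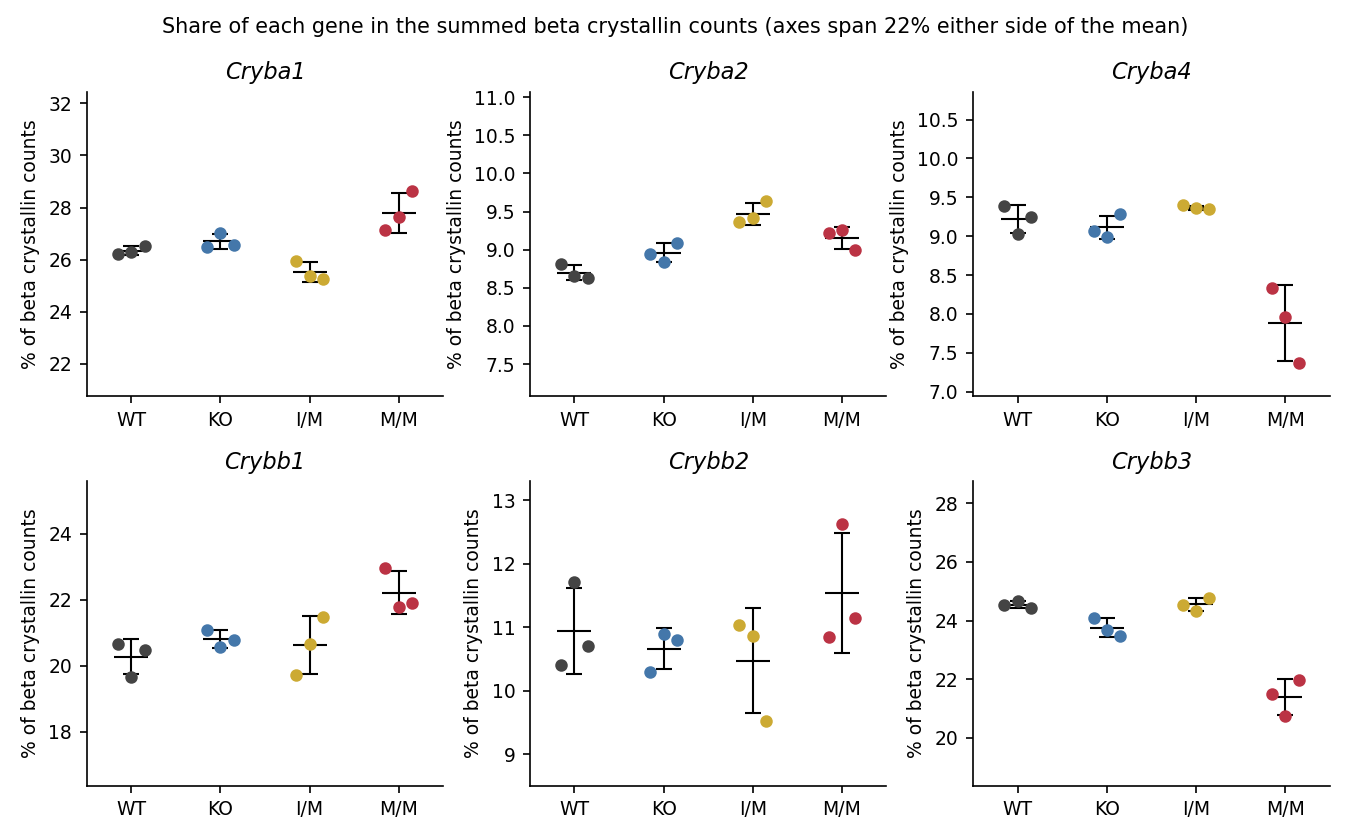
Share of each gene in the summed beta crystallin counts of a library, in percent, by genotype; points are libraries, bars are the mean ± SD (n = 3), and each axis spans 22% either side of that gene's mean and does not start at 0. In *Trpm3*-M/M lenses *Cryba4* and *Crybb3* sit below all wild-type libraries and *Crybb1* and *Cryba1* above them.

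Neighbouring genes on chromosome 5 did not keep their ratio. The *Crybb1* to *Cryba4* count ratio was 2.20, 2.18 and 2.21 in the wild-type libraries and 2.75, 2.74 and 2.97 in the *Trpm3*-M/M libraries (exact permutation p = 0.1, the smallest possible, adjusted p = 0.2). The *Crybb2* to *Crybb3* ratio was 0.424, 0.475 and 0.438 in wild-type and 0.505, 0.608 and 0.508 in *Trpm3*-M/M lenses (exact permutation p = 0.1, adjusted p = 0.2). In both pairs the libraries of the genotypes did not overlap, and the ratio moved away from the gene with the larger fall, *Cryba4* or *Crybb3*. In *Trpm3*-I/M lenses both ratios overlapped wild-type, at 2.20 ± 0.10 and 0.427 ± 0.037, and also without replicate 3, at means of 2.15 and 0.448. In *Trpm3*-KO lenses the first was 2.28 ± 0.04 and did not overlap wild-type, and the second was 0.449 ± 0.019 and did.

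Some shares in the other genotypes also lay apart from wild-type. *Cryba2* took 9.47% ± 0.15 of beta crystallin counts in heterozygous and 8.96% ± 0.13 in knockout lenses, above all 3 wild-type libraries in each case. Its heterozygous share was also above all 3 *Trpm3*-M/M libraries. *Cryba1* was lower than wild-type in *Trpm3*-I/M lenses, at 25.5% ± 0.38, and higher in *Trpm3*-M/M lenses, and *Crybb3* was lower in *Trpm3*-KO lenses, at 23.7% ± 0.32. Of the 24 comparisons of shares and ratios with wild-type, 12 had no overlap between libraries, each with an exact permutation p of 0.1 and an adjusted p of 0.2. Without *Trpm3*-I/M replicate 3 the heterozygous shares of *Cryba2* (mean 9.39%) and *Cryba1* (mean 25.7%) still did not overlap wild-type.

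**Figure D5:**
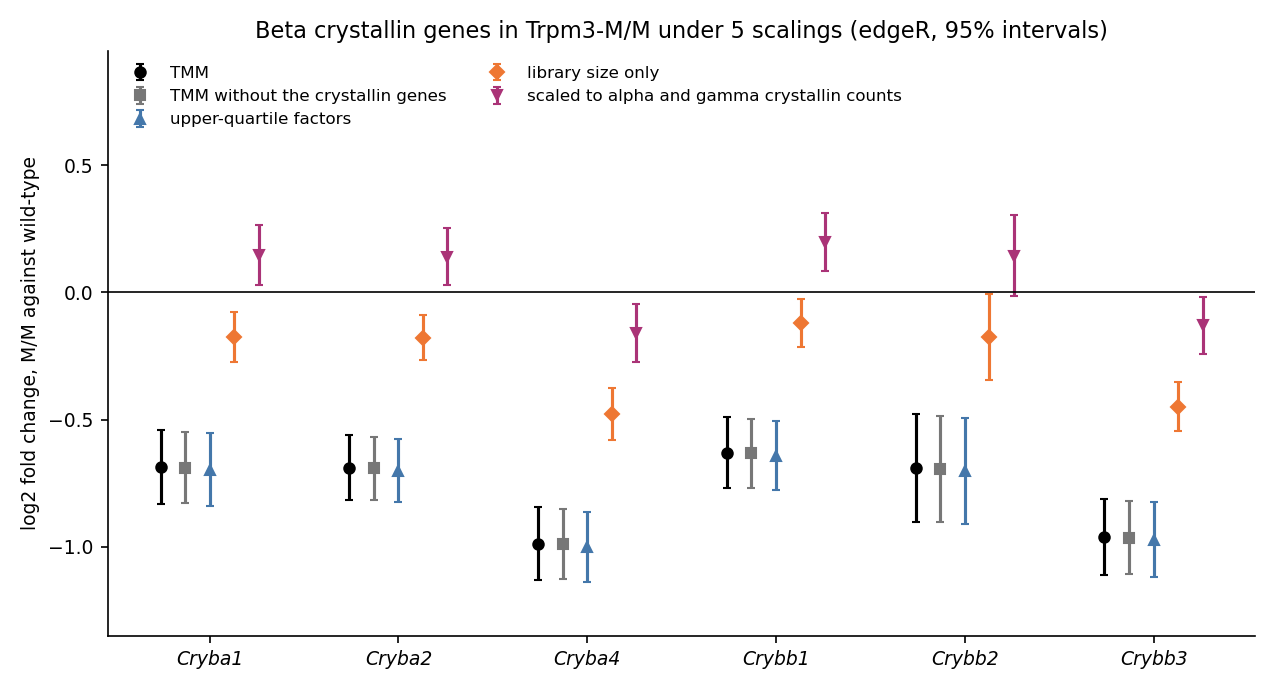
Log2 fold change of each beta crystallin gene in *Trpm3*-M/M against wild-type lenses under 5 scalings of the libraries, with 95% intervals from edgeR. TMM, TMM without the crystallin genes and upper-quartile factors give nearly the same values, library size alone gives falls of 0.12 to 0.48, and scaling to alpha and gamma crystallin counts puts *Cryba1*, *Cryba2*, *Crybb1* and *Crybb2* above 0 and leaves *Cryba4* and *Crybb3* below it. The median tested gene lay at 0.50 with library size alone and at 0.82 on the alpha and gamma scale.

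The size and, under one scaling, the direction of these differences depended on how libraries were scaled, and crystallin reads were most of each library. The 19 crystallin genes took 62.1% ± 1.56 of counted reads in wild-type and 50.5% ± 1.01 in *Trpm3*-M/M lenses, and the TMM factors ran from 0.828 to 0.905 in wild-type and from 1.22 to 1.27 in the homozygotes. With library size alone the median gene was 0.50 higher on the log2 scale in *Trpm3*-M/M lenses, and the members then fell by 0.12 (*Crybb1*) to 0.48 (*Cryba4*), with 6 of 6 past the edgeR test. Scaled to alpha and gamma crystallin counts, *Cryba4* (-0.16) and *Crybb3* (-0.13) were below wild-type, *Crybb1* (0.20), *Cryba1* (0.15) and *Cryba2* (0.14) were above it, and *Crybb2* (0.14) did not pass. The median tested gene was 0.82 higher on that scale, so all 6 members stayed below it. In bulk RNA, fewer fiber cells and less beta crystallin RNA per fiber cell cannot be told apart.

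Of 26 listed transcription factors and receptors of the lens differentiation program, 25 were tested. In *Trpm3*-M/M lenses 14 were lower and 7 higher, against 31.4% of tested genes in each direction. With library size alone the split was 6 lower and 15 higher, but the median tested gene was itself 0.50 higher on that scale. *Maf*, which encodes the c-Maf activator of crystallin genes and was the most abundant of the list, averaged 1289 ± 95 CPM in wild-type and 768 ± 79 CPM in *Trpm3*-M/M lenses (log2 fold change -0.75, SE 0.07, edgeR FDR 7.41e-07). *Prox1*, a homeobox regulator of fiber elongation and of beta crystallin transcription, averaged 565 ± 1.2 and 451 ± 7.0 CPM (log2 fold change -0.33, SE 0.05, edgeR FDR 8.63e-05), but was 0.18 above wild-type with library size alone. *Sox1* (-0.64) and *Pax6* (-0.62) were lower under TMM and library size alone, and above wild-type, like *Maf* (0.07), when scaled to alpha and gamma counts. *Sox2* (-2.19) and *Foxe3* (-2.24), genes of the lens epithelium, were lower under all 5 scalings, and *Gata3* (0.90) was higher under all 5. *Mafa* (1.01), counted among the 7 higher, was at 3.57 to 4.78 CPM in wild-type and 7.64 to 8.38 CPM in *Trpm3*-M/M lenses. It could thus pass the filter on low counts through the *Trpm3*-M/M libraries alone, and its call carries no weight. In *Trpm3*-I/M lenses 11 were lower, against 15.3% of tested genes, and 4 higher after TMM scaling, and 6 and 9 with library size alone. The median tested gene was 0.20 higher in *Trpm3*-I/M lenses with library size alone. The share of all tested genes that were higher in these lenses is not reported here. Without *Trpm3*-I/M replicate 3, 11 were lower and 3 higher. In *Trpm3*-KO lenses 0 of 25 passed, against 4.36% of tested genes in either direction. Whether any of these factors bears on the beta crystallin levels was not tested.

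Markers of fiber cells were lower together with the beta crystallins. Over 17 listed fiber markers, which correspond to 18 gene identifiers, 13 were lower and 2 higher in *Trpm3*-M/M lenses, against 31.4% of tested genes in each direction. Their summed level ran from 40822 to 43627 CPM in wild-type, against 22705 to 26683 CPM in the homozygotes. With library size alone 10 were lower and 5 higher, and scaled to alpha and gamma counts 3 and 7. The median tested gene was 0.50 and 0.82 higher on these 2 scales. *Bfsp1*, a beaded filament protein of fibers, fell by 1.32 on the log2 scale and stayed lower under all 5 scalings, and *Mip*, the fiber aquaporin, fell by 0.81 but was at 0.01 when scaled to alpha and gamma counts. Of 9 tested epithelial markers 4 were lower and 3 higher in *Trpm3*-M/M lenses, near the 31.4% of tested genes in each direction, and with library size alone 3 and 5. Their summed level was 1621 to 1663 CPM in wild-type and 1552 to 1662 CPM in *Trpm3*-M/M lenses, most of it from *Sparc*, a matricellular protein, at 1121 ± 32 and 1160 ± 63 CPM. Summed markers of other cell types were low but higher in *Trpm3*-M/M lenses. The 8 vascular endothelial markers summed to 51.2 to 58.8 CPM there and to 18.0 to 25.4 CPM in *Trpm3*-I/M lenses. The 8 pericyte and fibroblast markers summed to 14.6 to 18.7 CPM in wild-type and 102.4 to 158.2 CPM in *Trpm3*-M/M lenses. Calls for single genes of these lists are not counted, since genes this low in wild-type could pass the filter through the *Trpm3*-M/M libraries alone. The macrophage markers, none of which passed the filter, summed to 8.14 to 15.8 CPM in *Trpm3*-M/M lenses. The 12 photoreceptor markers summed to at most 3.31 CPM in wild-type and 24.8 CPM in *Trpm3*-M/M lenses. Their part in the beta crystallin values was not tested. The summed level of the beta crystallins was 199277 to 227533 CPM in wild-type and 122757 to 126125 CPM in *Trpm3*-M/M libraries.

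Across the 12 libraries the log2 levels of the members followed each other closely. Pearson's r between members ran from 0.915 (*Crybb1* with *Crybb2*) to 0.995 (*Cryba2* with *Cryba4*), and the 4 lowest values all involved *Crybb2*. These libraries share the genotype differences and the scaling, so r is given as a description. Outside the family, the gene most like *Cryba4* was *Lim2* (ENSMUSG00000118560, r = 0.995), a fiber membrane protein. The genes most like the others were *Rpl32* for *Cryba1* (0.993), *Tbc1d7* for *Cryba2* (0.994), *Mlst8* for *Crybb1* (0.992), *Fbxw5* for *Crybb2* (0.978) and *Rps13* for *Crybb3* (0.992). Among the 5 genes most like the mean standardized level of the family were *Eef1d*, *Wnt7b*, *Anks3* and *Sfrp1*, with r from 0.991 to 0.993.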

How the data were processed

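RNA was measured by poly(A)-selected RNA-seq in 12 lens libraries, 3 per genotype. Per the labels and the study's methods, the authors demultiplexed reads with bcl2fastq2 and aligned and quantified them with DRAGEN 3.9.3-8 against Ensembl release 101 (mm10). The deposited values are estimated counts of each gene with no scaling. Of all values, zeros included, 88.4% were exactly whole, with no tolerance, while 26 of the 72 member values were not, and values that were not whole were rounded. A deposited table of 9470 genes also holds the authors' CPM, fold changes and p-values, which were not used. Its counts matched the full table with 0 differences.

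Genes with a CPM of at least 5 in at least 3 libraries were kept (8984), TMM factors were computed, and all 12 libraries entered a single quasi-likelihood fit in edgeR 4.0.16 (R 4.3.3), modelled by genotype alone, with Benjamini-Hochberg adjustment within each comparison. A gene passed at an FDR of at most 0.05. The fit was also run on simulated counts in which randomly picked genes were raised or lowered, with an outcome not reported here. That simulation was not built to copy the fall in crystallin reads, so it does not test the scalings. CPM values are TMM-scaled, and shares use raw counts. Depth ran from 56162169 to 82090198 counts, so counting error of the members is small beside the spread between libraries. Lengths and loci came from GENCODE annotation of GRCm38, and promoters from RefSeq (GRCm38.p6), where all 6 members matched.

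The members, lists and motifs were chosen with earlier results of these data known, so no adjusted p over the members alone is given. Named genes were the 6 members, *Trpm3*, genes of the alpha, gamma and transcription factor lists, the 2 most abundant tested genes of other lists, and the genes most like each member by Pearson's r, and some of these are not reported here. *Xist*, the overlapping genes and the markers named at 0 were added after values were seen. Libraries were not pooled further. Alternatives were 4 other scalings, DESeq2 1.42.0, 2 other filters, a fit restricted to the libraries of each comparison, a block for replicate number, and leaving out each library.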

Additional observations from a re-analysis of the deposited data

How the results depend on the processing

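The number of beta crystallin genes past an FDR of 0.05 was 0 in *Trpm3*-KO against wild-type in every setting run, and in *Trpm3*-M/M against wild-type it was 6 in every setting except scaling to alpha and gamma crystallin counts, which gave 5, of which 2 were lower (*Cryba4* and *Crybb3*) and 3 higher (*Cryba1*, *Cryba2* and *Crybb1*). In *Trpm3*-I/M against wild-type, where 5 passed as lower, the count was 0 with library size alone, 1 scaled to alpha and gamma crystallin counts (*Cryba2*, higher, so that 0 were lower), 2 with only the 2 genotypes compared, 6 with DESeq2 and 3 to 5 with a library left out, the lowest without *Trpm3*-I/M replicate 3. In *Trpm3*-M/M against *Trpm3*-I/M the count of 6 became 3 with library size alone and 2 scaled to alpha and gamma crystallin counts. In *Trpm3*-M/M against wild-type the number past a fold change of 2 as well went from 0 to 1 (*Cryba4*) with no filter or a CPM of at least 1, and to between 0 and 2 with a library left out. Library size alone turned *Trpm3*-KO values above 0 for *Cryba1* (0.0079), *Cryba2* (0.031) and *Crybb1* (0.027), and *Trpm3*-I/M values for *Cryba2* (0.065). Scaled to alpha and gamma crystallin counts, the log2 fold changes above 0 were *Cryba1* (0.046), *Cryba2* (0.069), *Cryba4* (0.0095) and *Crybb1* (0.064) in *Trpm3*-KO, *Cryba1* (0.029), *Cryba2* (0.20), *Cryba4* (0.097), *Crybb1* (0.099), *Crybb2* (0.013) and *Crybb3* (0.075) in *Trpm3*-I/M, *Cryba1* (0.15), *Cryba2* (0.14), *Crybb1* (0.20) and *Crybb2* (0.14) in *Trpm3*-M/M, and *Cryba1* (0.12), *Crybb1* (0.099) and *Crybb2* (0.13) in *Trpm3*-M/M against *Trpm3*-I/M. With a library left out, *Trpm3*-KO values ran from -0.087 to 0.011 for *Cryba1*, -0.052 to 0.033 for *Cryba2*, -0.062 to 0.011 for *Crybb1* and -0.18 to 0.0064 for *Crybb2*, each above 0 without wild-type replicate 2, and for *Crybb1* also (0.0023) without *Trpm3*-KO replicate 3. Per kb of exon, the share of *Crybb3* in *Trpm3*-I/M lenses was 0.083 percentage points lower than in wild-type (a difference of -0.083), where raw counts gave it 0.013 higher.

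Over all tested genes, the number past an FDR of 0.05 was 392 in *Trpm3*-KO, 2929 in *Trpm3*-I/M, 5637 in *Trpm3*-M/M and 4608 in *Trpm3*-M/M against *Trpm3*-I/M. With no filter on low counts it was 1191 in *Trpm3*-KO, 9323 in *Trpm3*-M/M and 7440 in *Trpm3*-M/M against *Trpm3*-I/M, since more genes were tested. It was 5016 in *Trpm3*-I/M with library size alone, and 6703, 8556 and 7952 in *Trpm3*-I/M, *Trpm3*-M/M and *Trpm3*-M/M against *Trpm3*-I/M when scaled to alpha and gamma crystallin counts. With a library left out it ran from 234 to 433 for knockout, 2336 to 2831 for heterozygous and 4749 to 5639 for homozygous lenses against wild-type, and 3590 to 4718 for homozygous against heterozygous lenses. The cause of these differences was not tested unless stated. Same-numbered libraries did not deviate together (18 pairs, correlation of deviations from -0.26 to 0.15). The labels do not say whether same-numbered samples were collected or prepared together. The replicate block gave 341, 2694, 5514 and 4461 genes in the 4 comparisons and changed no call of a member.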
